A study of Rattus norvegicus with 48 samples.

Results

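The interleukin-6 family and its signalling chain were followed through rat primary cortical cultures as 10 genes, chosen by symbol from the 30211 genes of the deposited table. They are the ligands Il6, Lif, Cntf and Clcf1, the receptors Il6r, Il6st, Osmr and Lifr, the transcription factor Stat3 and the feedback inhibitor Socs3. All 10 were found and all 10 passed the filter on low values, which 15890 genes passed. The cultures came from Sprague-Dawley rat fetuses of day 18 and were used after 21 days in vitro. There were 48 RNA-seq libraries in 16 groups of 3. Control cultures received neither Tat, cocaine nor a compound, and Cocaine cultures received 25 µM cocaine for 24 h. Tat cultures received 6 ng/mL of the HIV-1 transactivator protein Tat (residues 1 to 86) for 48 h, and Tat-Cocaine cultures received both. Each of 4 compounds was given alone, with Tat (as in Tat-4OI) and with Tat and cocaine (as in Tat-Cocaine-4OI). These were 250 µM 4OI (4-octyl itaconate, a cell-penetrable ester of itaconate), 25 µM Amlexanox (an inhibitor of the kinases TBK1 and IKK epsilon), 3 µM Tazemetostat (an inhibitor of the histone methyltransferase EZH2) and 1 µM Senicapoc (a blocker of the potassium channel KCa3.1), each for 48 h. It is not clear from the labels whether cultures without cocaine were kept for the 24 h of the cocaine step, so a longer culture time and cocaine cannot be told apart where they were not. Nothing states that Control cultures received the solvent of the compounds, or that the 3 libraries of a group came from separate preparations, so the p-values measure the spread between these libraries, which may be technical.

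The labels call the cells neurons, while the paper describes mixed neuronal cultures, and markers of several cell types were found here. The summed level of 6 astrocyte markers was 5137 to 12140 CPM per library, that of 6 neuron markers 669.5 to 2887 CPM and that of 6 microglia markers 166.6 to 1932 CPM. The summed level of 3 fibroblast markers was 33.9 to 300.4 CPM, and endothelial markers were near 0 (0.63 to 3.23 CPM). Oligodendrocyte markers lay between 157.4 and 2180 CPM in 47 libraries and at 24622 CPM in Cocaine replicate 3, which stood apart. Depth was 17.5 to 29.1 M reads per library, and 1 read was worth 0.033 to 0.058 CPM.

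Cytokines of this family signal through the shared receptor chain gp130, which is encoded by Il6st. Interleukin-6 first binds its own receptor, while leukemia inhibitory factor, ciliary neurotrophic factor and cardiotrophin-like cytokine use the LIF receptor beside gp130, and oncostatin M can use the receptor encoded by Osmr. Janus kinases on these chains phosphorylate Stat3, which enters the nucleus and induces Socs3, and Socs3 in turn binds gp130 and blocks the kinases. In the brain the pathway is known for driving astrocyte reactivity and for the injury response of neurons.

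The bases upstream of Il6 and Cntf are shown because promoter windows were searched for sites of inducible factors, and in these 2 genes the window's start is the outer edge of the annotated gene. The 250 bases before the start are given 5′ to 3′ on the gene's strand from RefSeq, assembly GRCr8, which may not be the build of the deposited values. Capitals mark a CRE, AP-1 or NF-kB match. The Il6 bases lie on the minus strand at chr4:5894576-5894825, and the Cntf bases on the minus strand at chr1:219314536-219314785.
Il6: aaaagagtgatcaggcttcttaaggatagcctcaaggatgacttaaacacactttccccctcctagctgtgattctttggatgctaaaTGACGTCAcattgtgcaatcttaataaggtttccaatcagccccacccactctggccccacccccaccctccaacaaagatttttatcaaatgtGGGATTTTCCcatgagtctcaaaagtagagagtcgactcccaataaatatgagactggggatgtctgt
Cntf: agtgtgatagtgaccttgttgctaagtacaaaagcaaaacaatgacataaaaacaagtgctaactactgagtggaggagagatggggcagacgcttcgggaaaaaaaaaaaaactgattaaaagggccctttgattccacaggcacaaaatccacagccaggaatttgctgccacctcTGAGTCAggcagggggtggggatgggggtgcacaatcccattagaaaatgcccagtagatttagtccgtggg

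The table of windows, 250 bases before to 50 after 1 start per gene, held 8 of the 10 genes, and the windows of Lif and Clcf1 were not analysed here. For Il6r, Il6st, Osmr, Lifr, Stat3 and Socs3 the start used lay 154 (Stat3) to 11602 bases (Lifr) inside the annotated gene, so that these 6 windows do not describe the bases before the gene's outer edge. Both strands were searched for 4 motifs, with no overlap between the matches found. A CRE (TGACGTCA, held by 1.83% of the 33469 windows in the table) was matched in Il6, from 162 to 155 bases before the start. An AP-1 site (TGANTCA with N being C or G, 4.63% of windows) was matched in Cntf, from 72 to 66 bases before the start. An NF-kB site (7.51% of windows) was matched in Il6, from 68 to 59 bases before the start. It was also matched in the windows of Socs3 and Il6st, whose starts lay 1207 and 11360 bases inside the gene. The STAT site TTCNNNGAA (8.87% of windows) was not matched in the Il6 or Cntf window, nor in the 6 windows inside a gene. These are matches of letters and do not show binding.

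Tat against Control asks which genes of the chain respond to the viral protein. Of the 10 genes 5 rose and 0 fell with limma at a Benjamini-Hochberg FDR under 0.05, while 21.3% of all genes tested changed in either direction. The median log2 fold change of the 10 genes was 1.04, against 0.01 over all genes tested. The 10 genes were chosen with earlier results of these data known, so such counts and medians describe them and do not test the chain. Those that rose were 2 ligands (Il6 and Clcf1), 1 receptor (Osmr), Stat3 and Socs3.

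**Figure D1:**
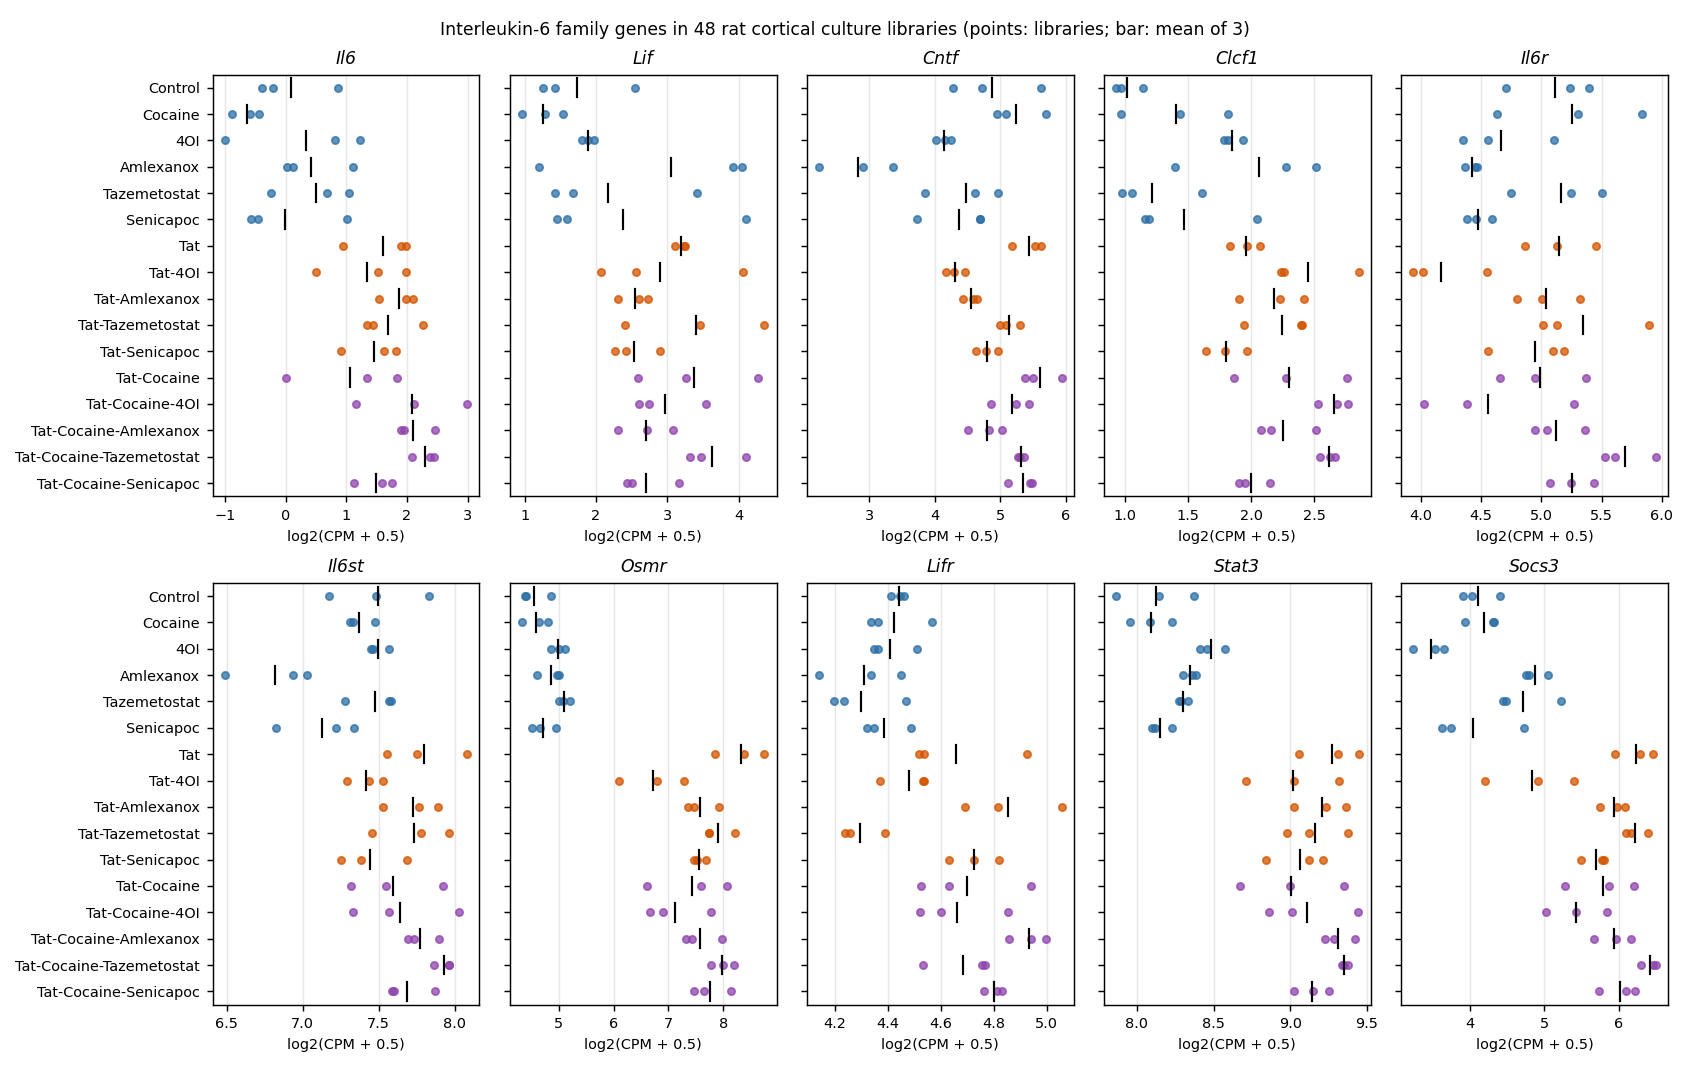
Level of each of the 10 genes in all 48 libraries as log2(CPM + 0.5), with 1 point per library and a bar at the mean of the 3 libraries of a group. Blue marks groups without Tat, orange groups with Tat and purple groups with Tat and cocaine, and the horizontal scale differs between panels. Osmr, Stat3 and Socs3 are higher in Tat than in Control libraries without overlap, while Il6r overlaps between them.

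Osmr, the oncostatin M receptor chain, was at 20.7, 28.6 and 20.2 CPM in Control and at 334, 431 and 231 CPM in Tat libraries. The lowest Tat library was far above the highest Control library. The log2 fold change was 3.78 ± 0.29 (SE, n = 3 per group; limma FDR = 1.44e-11). Socs3, the feedback inhibitor, was at 15.8, 20.6 and 14.5 CPM in Control and at 77.1, 87.1 and 61.1 CPM in Tat libraries. The groups did not overlap, and the log2 fold change was 2.11 ± 0.26 (limma FDR = 2.67e-07). Stat3 was at 232, 331 and 282 CPM in Control and at 697, 635 and 531 CPM in Tat libraries. All 3 Tat libraries lay above all 3 Control libraries, with a log2 fold change of 1.14 ± 0.15 (limma FDR = 7.96e-07).

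Among the ligands, Clcf1, which signals through the CNTF receptor, was at 1.46, 1.72 and 1.41 CPM in Control and at 3.701, 3.403 and 3.07 CPM in Tat libraries. The groups did not overlap, and the log2 fold change was 0.94 ± 0.25 (limma FDR = 0.00543). Il6 was at 0.268, 1.32 and 0.363 CPM in Control and at 3.45, 3.22 and 1.42 CPM in Tat libraries. These are low values, and Control replicate 2 came close to Tat replicate 3. The log2 fold change was 1.51 ± 0.52 on the log2(CPM + 0.5) scale (limma FDR = 0.0333), and it no longer passed without Tat replicate 1 or 2 or Control replicate 1 or 3 (log2 fold change 1.28 to 1.90 over the 6 libraries left out in turn). It did not pass either with a pseudocount of 0.1 CPM, with no filter, in a fit to the 21 libraries without Amlexanox, Tazemetostat or Senicapoc, or in a fit to the 6 libraries compared (limma FDR of 0.0194 to 0.107 and log2 fold change of 1.17 to 2.07 over 11 alternatives). Lif was at 1.88, 5.34 and 2.18 CPM in Control and at 8.11, 8.97 and 8.91 CPM in Tat libraries. The Tat libraries lay close together above all Control libraries, but the log2 fold change of 1.45 ± 0.63 did not pass (limma FDR = 0.094). It passed with a replicate block, in the fit to 21 libraries and in the fit to the 6 libraries (limma FDR = 0.0438, 0.0465 and 0.0479). Cntf, which astrocytes make, was at 19.04, 25.9 and 48.7 CPM in Control and at 35.8, 45.8 and 48.6 CPM in Tat libraries, which overlapped. Its log2 difference of 0.57 ± 0.28 did not pass (limma FDR = 0.14), and without Control replicate 3 it was 0.94 and passed (limma FDR = 0.0191).

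The other receptor genes did not pass. The log2 difference was 0.30 ± 0.18 for Il6st (gp130), 0.22 ± 0.11 for Lifr and 0.04 ± 0.28 for Il6r. Their 95% confidence intervals were -0.06 to 0.66, -0.01 to 0.45 and -0.54 to 0.61 on the log2 scale. Tat libraries thus differed from Control in Osmr by far more than the upper bound for any of the other 3 receptor genes.

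Of 28 other genes of the pathway that were tested, 14 rose and 0 fell with Tat, with a median log2 fold change of 0.64, beside 21.3% of all genes called in either direction and a median of 0.01 over all genes. Among genes known to respond to gp130 and Stat3, 7 of 9 rose, and among feedback genes 4 of 5 (Socs1, Socs2, Cish and Ptpn6). The lists were chosen with earlier results of these data known, so their counts are descriptions and do not test the pathway. Lcn2, a siderophore-binding lipocalin known from reactive astrocytes, had the largest rise of the 28, from 32.95 to 315.1 CPM in Control to 8461 to 13561 CPM in Tat libraries (log2 fold change 6.82 ± 0.79, limma FDR = 6.84e-08). Timp1, an inhibitor of metalloproteinases, rose from 32.7 to 59.5 CPM to 231.8 to 326.4 CPM (log2 fold change 2.76 ± 0.30, limma FDR = 1.94e-08). Other receptors of the family gave 0 rises and 0 falls of 3 tested, Jak2 alone of 5 kinases and STATs rose, a share near that of all genes, and of the shedding proteases Adam17 rose and Adam10 did not pass.

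In these bulk libraries, fewer cells of a type and less RNA per cell cannot be told apart. The summed microglia markers were 446.6 to 805.6 CPM in Control and 715.3 to 1379 CPM in Tat libraries, and 2 of 6 of these markers rose (Aif1 and Itgam). Of 6 astrocyte markers 2 fell (Gfap and Gja1), and their sum was 8295 to 9188 CPM in Control and 6141 to 8269 CPM in Tat libraries. The part of these shifts in the results was not tested.

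Cocaine alone was compared with Control to learn whether the drug moves the chain without Tat. Of the 10 genes 0 passed with limma, beside 0.201% of all genes (unadjusted p under 0.05: 0, beside 1996 of 15890). The count of calls was also 0 without Cocaine replicate 3. Osmr was at 19.5, 27.3 and 24.3 CPM and Socs3 at 14.8, 19.2 and 19.5 CPM in Cocaine libraries, within or near the Control range. The log2 difference from Control was 0.04 for Osmr (95% confidence interval -0.55 to 0.63) and 0.08 for Socs3 (-0.46 to 0.61). Il6 was at 0.236, 0.170 and 0.040 CPM, values of a few reads, below all Control libraries (0.268 to 1.32 CPM). Its log2 difference of -0.73 did not pass (95% confidence interval -1.78 to 0.32, limma FDR = 0.62).

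In Tat-Cocaine against Control 4 of the 10 genes rose and 0 fell, beside 14.9% of all genes in either direction. This comparison shares its Control libraries with that of Tat. Osmr was at 97.5, 193 and 269 CPM in Tat-Cocaine libraries, with replicate 1 lowest, and all were above Control (log2 fold change 2.88 ± 0.29, limma FDR = 1.22e-08). Socs3 was at 38.1, 57.96 and 73.2 CPM, again with no overlap with Control (log2 fold change 1.67 ± 0.26, limma FDR = 2.62e-05). Stat3 was at 407, 509.6 and 653 CPM (log2 fold change 0.88 ± 0.15, limma FDR = 8.92e-05). Fitted to only the 6 libraries compared, Stat3 did not pass (limma FDR = 0.0649). Clcf1 was at 3.15, 6.26 and 4.35 CPM, all above Control (log2 fold change 1.28 ± 0.25, limma FDR = 0.000384). Replicate 1 held the lowest value of the group for each of these genes. Lif was at 5.53, 18.8 and 9.06 CPM. Its log2 fold change of 1.63 ± 0.63 missed the threshold (limma FDR = 0.0749) and passed it with replicate number as a block (limma FDR = 0.0308), and in this comparison same-numbered libraries deviated together. It also passed with a weight per library, in the fit to 21 libraries and without Control replicate 2 or Tat-Cocaine replicate 1 (log2 fold change 1.49 to 2.04). Il6 was at 0.511, 2.05 and 3.06 CPM, overlapping Control (log2 difference 0.97 ± 0.52). The log2 differences of the others were 0.73 ± 0.28 for Cntf, 0.26 ± 0.11 for Lifr, 0.10 ± 0.18 for Il6st and -0.12 ± 0.28 for Il6r, and none of these 4 passed. Cntf passed with a weight per library (0.94) and without Control replicate 3 (1.10). Of the 28 other pathway genes 10 rose and 0 fell. The summed astrocyte markers were 6296 to 7872 CPM in Tat-Cocaine libraries, all below Control (8295 to 9188 CPM), and 1 of 6 fell (Gja1). The summed fibroblast markers were 175.4 to 246.0 CPM against 48.4 to 206.0 CPM in Control, and 1 of 3 rose (Lum). The part of these shifts was not tested.

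Tat-Cocaine was then set against Tat. Here 0 of the 10 genes passed with limma, beside 0.0189% of all genes (unadjusted p under 0.05: 1, beside 1297 of 15890). Osmr had the largest log2 difference of the 10, -0.90, with a 95% confidence interval of -1.49 to -0.31 and a limma FDR of 0.43. The step from Tat to Tat with cocaine was also averaged over 5 backgrounds (no compound and each compound). Again 0 of the 10 genes passed with limma, beside 4.55% of all genes (unadjusted p under 0.05: 3, beside 3198 of 15890). The nearest was Cntf, with a log2 difference of 0.40 ± 0.13 (limma FDR = 0.0572).

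Tat-4OI against Tat asks what the itaconate ester does in cultures with Tat. Of the 10 genes 4 fell and 0 rose, beside 15.6% of all genes in either direction, and the median log2 difference was -0.34 against 0.00 over all genes. Those that fell were Osmr, Socs3, Cntf and Il6r. Cntf and Il6r had not passed in Tat against Control, so their falls are not falls of a called Tat response. Osmr was at 67.7, 155 and 110.2 CPM in Tat-4OI libraries. All 3 were below the lowest Tat library (231 CPM) and above the highest Control library (28.6 CPM), with a log2 fold change of -1.61 ± 0.29 from Tat (limma FDR = 0.000207). Socs3 was at 17.9, 41.6 and 29.5 CPM. All 3 were below the lowest Tat library, and replicate 1 lay within the Control range (log2 fold change -1.39 ± 0.26, limma FDR = 0.000383).

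Cntf was at 19.2, 17.5 and 21.6 CPM in Tat-4OI libraries, below all Tat libraries (log2 fold change -1.13 ± 0.28, limma FDR = 0.00539). Il6r was at 14.8, 22.9 and 15.7 CPM, also below all Tat libraries (log2 fold change -0.98 ± 0.28, limma FDR = 0.0169). The Il6r call did not hold without Tat replicate 2 or Tat-4OI replicate 1 or 3 (log2 fold change -1.17 to -0.83 over the libraries left out), nor in the fit to 21 libraries (limma FDR = 0.0811). Stat3 was at 418, 636 and 519 CPM and overlapped Tat (log2 difference -0.26 ± 0.15, limma FDR = 0.24). The ligands overlapped Tat as well, Il6 at 0.9097, 3.44 and 2.38 CPM and Lif at 3.69, 16.2 and 5.4 CPM, with replicate 2 highest in both. Clcf1 was at 4.23, 6.72 and 4.28 CPM, above all Tat libraries, but its log2 difference of 0.49 ± 0.25 did not pass. The log2 differences of the other genes were -0.27 ± 0.52 for Il6, -0.30 ± 0.63 for Lif, -0.38 ± 0.18 for Il6st and -0.18 ± 0.11 for Lifr. The 95% confidence intervals of Il6 (-1.32 to 0.78) and Lif (-1.57 to 0.98) are wide. With a weight per library Il6st, Lifr and Stat3 passed as well (log2 fold change -0.45, -0.27 and -0.33, limma FDR = 0.0179, 0.0496 and 0.0424).

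Of the 28 other pathway genes 1 rose and 9 fell in Tat-4OI against Tat, with a median log2 difference of -0.41, beside 15.6% of all genes called in either direction and a median of 0.00 over all genes. Jak1, a kinase bound to gp130, rose from 245.2 to 277.0 CPM to 319.5 to 361.6 CPM (log2 fold change 0.38 ± 0.07, limma FDR = 0.000419). Ebi3, a subunit of interleukin-27, had the largest called fall, from 61.5 to 69.2 CPM to 10.3 to 29.1 CPM (log2 fold change -1.77 ± 0.26, limma FDR = 1.47e-05). Ptpn6, a phosphatase of blood-derived cells and microglia, fell from 83.7 to 204.3 CPM to 29.9 to 76.6 CPM (log2 fold change -1.60 ± 0.46, limma FDR = 0.0153). Among genes known to respond to gp130 and Stat3, 3 of 9 fell (Bcl3, Cebpd and Pim1), and Lcn2 had a log2 difference of -1.77 ± 0.79 that did not pass (limma FDR = 0.119). The summed microglia markers were 269.0 to 676.6 CPM in Tat-4OI libraries, all below the lowest Tat library (715.3 CPM), and 2 of 6 fell (Csf1r and Itgam). Their part in these falls was not tested.

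**Figure D2:**
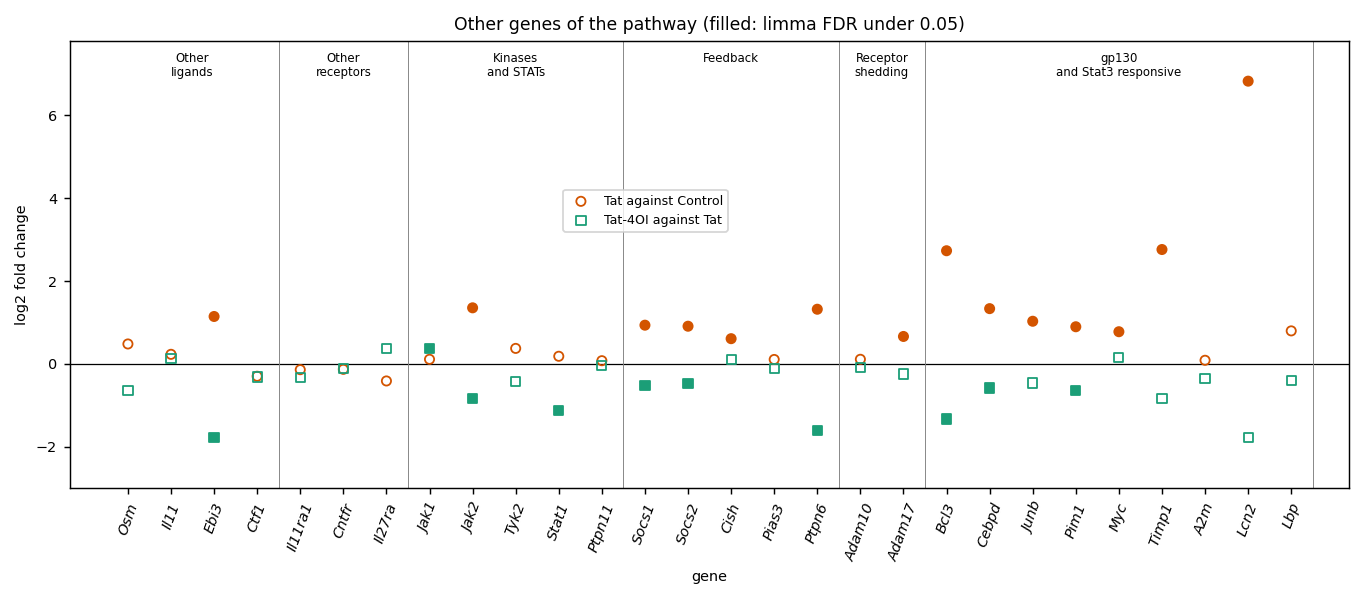
log2 fold change of 28 other genes of the pathway in Tat against Control (circles) and in Tat-4OI against Tat (squares), grouped by role, with filled symbols for a limma FDR under 0.05. Filled circles are 14 above 0 and 0 below it, and filled squares are 1 above 0 and 9 below it. The 2 comparisons share the Tat libraries.

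Without Tat, the effect of 4OI was compared in the same way. In 4OI against Control 0 of the 10 passed with limma, beside 3.15% of all genes (unadjusted p under 0.05: 4, beside 2082 of 15890). Same-numbered libraries deviated together in this comparison, and with replicate number as a block 1 of the 10 passed (Clcf1). Clcf1 was at 2.95, 3.02 and 3.34 CPM in 4OI libraries, above all Control libraries (log2 difference 0.83 ± 0.25, limma FDR = 0.0552 without the block). Socs3 was at 11.05, 8.93 and 12.05 CPM, below all Control libraries (log2 difference -0.64 ± 0.26, limma FDR = 0.25). Cntf was at 18.5, 15.7 and 17.4 CPM, also below all Control libraries (log2 difference -0.73 ± 0.28, limma FDR = 0.19). Stat3 was at 350, 340 and 381 CPM, above all Control libraries (log2 difference 0.35 ± 0.15, limma FDR = 0.27). Osmr was at 31.6, 28.5 and 33.9 CPM, with 2 of 3 above the highest Control library. Il6 was at 1.84, 0 and 1.25 CPM, and the 0 allows up to 0.13 CPM (3 reads in that library, counting error only).

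Tat still raised part of the chain when 4OI was present. In Tat-4OI against 4OI 3 of the 10 genes rose and 0 fell, beside 5.18% of all genes in either direction. The log2 fold change was 1.74 ± 0.29 for Osmr (limma FDR = 0.000259), 1.36 ± 0.26 for Socs3 (limma FDR = 0.00132) and 0.54 ± 0.15 for Stat3 (limma FDR = 0.0304). The Stat3 call held only when Tat-4OI replicate 1 or no library was left out (log2 fold change 0.39 to 0.69), and it did not hold in fits to fewer groups. Of 6 astrocyte markers 1 fell in this comparison (Gja1). The difference between the Tat effects with and without 4OI was tested as an interaction, and 1 of the 10 genes passed, beside 0.497% of all genes. It was Osmr, whose Tat effect was 2.05 ± 0.41 smaller on the log2 scale with 4OI (limma FDR = 0.0102, 95% confidence interval of the difference -2.88 to -1.22). It did not pass without Tat replicate 2 or Tat-4OI replicate 1 (-2.33 to -1.73 over the libraries left out), nor in fits to fewer groups. For Socs3 the difference was -0.75 ± 0.37 and for Stat3 -0.61 ± 0.21 (limma FDR = 0.42 and 0.22). With Amlexanox, Tazemetostat and Senicapoc the Tat effect on Osmr was 2.72, 2.81 and 2.85. These also lay below the 3.78 without a compound, and their interactions did not pass. Every interaction with a compound shares the same Tat and Control libraries.

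**Figure D3:**
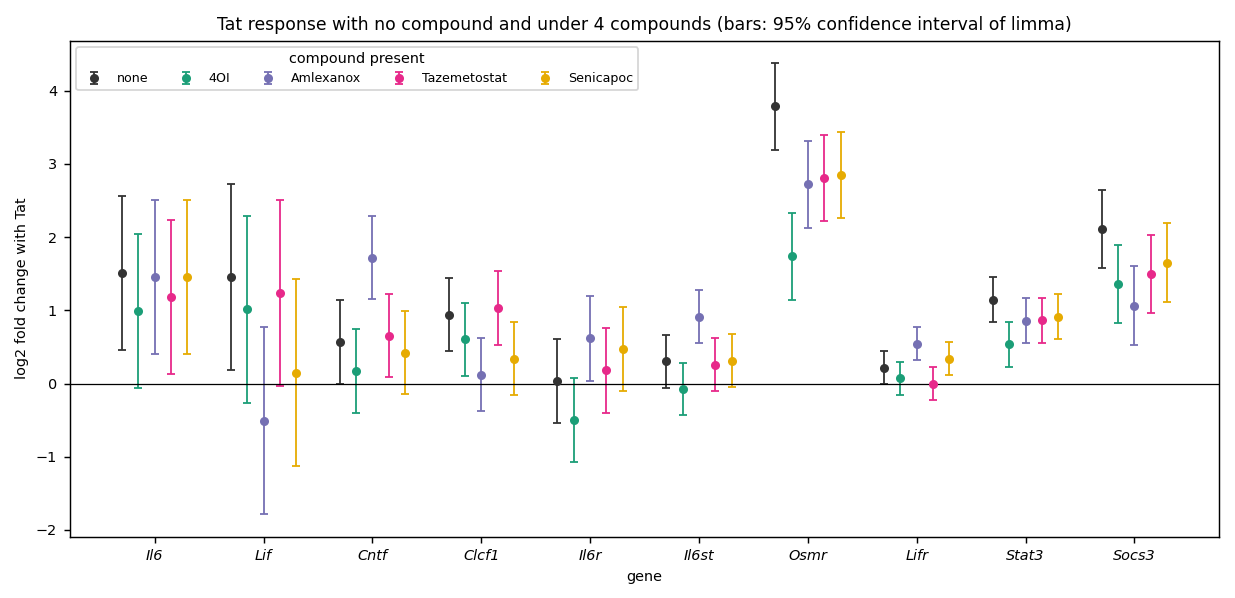
log2 fold change with Tat for each of the 10 genes with no compound (black) and with each of the 4 compounds (colours), with bars for the 95% confidence interval of the limma fit. The Osmr points lie at 3.78 with no compound and at 1.74 with 4OI. They lie at 2.72 with Amlexanox, 2.81 with Tazemetostat and 2.85 with Senicapoc. The intervals of Osmr, Stat3 and Socs3 lie above 0 in all 5 conditions.

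In cultures that had received cocaine as well, 4OI gave no call among the 10 genes. In Tat-Cocaine-4OI against Tat-Cocaine 0 of 10 passed with limma, beside 7.36% of all genes (unadjusted p under 0.05: 0, beside 3370 of 15890). Osmr was at 101, 219 and 119 CPM, within the Tat-Cocaine range of 97.5 to 269 CPM. Socs3 was at 31.9, 56.6 and 42.3 CPM and overlapped as well, replicate 1 being the lowest. Il6 was at 1.73, 7.46 and 3.82 CPM, and the 7.46 CPM of replicate 2 was the highest Il6 value of the 48 libraries. The log2 differences were 1.02 ± 0.52 for Il6, -0.41 ± 0.63 for Lif, -0.43 ± 0.28 for Cntf, 0.36 ± 0.25 for Clcf1 and -0.43 ± 0.28 for Il6r. They were 0.05 ± 0.18 for Il6st, -0.31 ± 0.29 for Osmr, -0.04 ± 0.11 for Lifr, 0.10 ± 0.15 for Stat3 and -0.36 ± 0.26 for Socs3. With a weight per library Il6 and Cntf passed (1.08 and -0.52, limma FDR = 0.0371 and 0.0439). The 95% confidence interval for Osmr, -0.90 to 0.28, does not reach the -1.61 seen in Tat-4OI against Tat. The difference between these 2 effects was not tested, and the groups they are set against differed in level. Osmr was at 231 to 431 CPM in Tat and at 97.5 to 269 CPM in Tat-Cocaine libraries. With 4OI it was at 67.7 to 155 CPM in Tat-4OI and at 101 to 219 CPM in Tat-Cocaine-4OI libraries. Of the 28 other pathway genes 1 rose (Jak1) and 1 fell (Ebi3, log2 fold change -2.64). The summed microglia markers were 450.1 to 839.7 CPM in Tat-Cocaine and 166.6 to 699.2 CPM in Tat-Cocaine-4OI libraries, and 1 of 6 fell. Of the astrocyte markers 2 of 6 rose, and of the fibroblast markers 2 of 3 fell. The part of these shifts was not tested.

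Amlexanox alone changed Cntf, Clcf1 and Il6st. In Amlexanox against Control 1 of the 10 genes rose and 2 fell, beside 11.4% of all genes in either direction. Cntf was at 9.81, 7.002 and 4.21 CPM, below every Control library (19.04 to 48.7 CPM), with a log2 fold change of -2.04 ± 0.28 (limma FDR = 3.46e-05). Il6st was at 130.3, 122 and 89.3 CPM, below every Control library (144 to 228 CPM), with a log2 fold change of -0.68 ± 0.18 (limma FDR = 0.0116). Clcf1 was at 2.13, 4.34 and 5.22 CPM, above every Control library (log2 fold change 1.05 ± 0.25, limma FDR = 0.00567). Without Amlexanox replicate 3 only Cntf of these 3 passed, and Il6st did not pass without Control replicate 3 either. In a fit to the 6 libraries alone 0 of the 10 passed. Of 6 astrocyte markers 3 fell (Aqp4, Aldh1l1 and Gja1), with sums of 5137 to 11347 CPM in Amlexanox libraries against 8295 to 9188 CPM in Control, and their part in the fall of Cntf was not tested.

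Lif was uneven among the Amlexanox libraries, at 1.796, 16.02 and 14.6 CPM, so that 2 of 3 were above every Control and every Tat library. The log2 difference from Control was 1.32 ± 0.63 (limma FDR = 0.18). Socs3 was at 27.3, 32.7 and 26.4 CPM, above all Control libraries (log2 difference 0.76 ± 0.26, limma FDR = 0.0559), and Il6r was at 20.1, 21.4 and 21.6 CPM, below them. Of the 28 other pathway genes 3 rose and 3 fell. Those that rose included Il11, another ligand of gp130, at 1.42 to 5.08 CPM against 0.23 to 0.69 CPM in Control. Those that fell were 1 of the other ligands, 1 of the other receptors and 1 of the kinases and STATs.

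With Tat present none of these 3 genes passed. In Tat-Amlexanox against Tat 0 of the 10 passed with limma, beside 0.837% of all genes (unadjusted p under 0.05: 2, beside 1988 of 15890). Same-numbered libraries deviated together in this comparison, and this fit had no replicate block. Cntf was at 23.4, 24.6 and 21.1 CPM, below all Tat libraries (log2 difference -0.89 ± 0.28, limma FDR = 0.13), and Il6st at 217, 237 and 184 CPM overlapped them. Osmr was at 163, 242 and 176 CPM (log2 difference -0.75, 95% confidence interval -1.34 to -0.16, limma FDR = 0.24). In Tat-Amlexanox against Amlexanox 7 of the 10 genes rose and 0 fell, beside 39.6% of all genes in either direction. Same-numbered libraries deviated together here too, and with replicate number as a block 8 rose, Il6r as well. The log2 fold change was 2.72 ± 0.29 for Osmr, 1.72 ± 0.28 for Cntf and 0.91 ± 0.18 for Il6st (limma FDR = 6.75e-08, 4.67e-05 and 0.00036). It was 1.06 ± 0.26 for Socs3, 0.86 ± 0.15 for Stat3 and 0.55 ± 0.11 for Lifr (limma FDR = 0.00275, 0.000109 and 0.000591). Il6 rose by 1.45 ± 0.52 (limma FDR = 0.0265) and no longer passed without Amlexanox replicate 1 or 3 or Tat-Amlexanox replicate 1 or 2 (1.26 to 1.80), nor with a pseudocount of 0.1 CPM. Of the 6 neuron markers 5 fell in this comparison, while 3 of 6 microglia and 2 of 6 astrocyte markers rose. Of 3 fibroblast markers 1 rose and 1 fell. The part of these shifts was not tested. The interaction of Tat with Amlexanox gave 0 calls among the 10 genes with limma, beside 1.84% of all genes. Unadjusted p was under 0.05 for 7 of the 10 and for 2895 of 15890 genes. Without Amlexanox replicate 1 the interaction gave 3 calls, and without Control replicate 1 it gave 1. The difference was 1.15 ± 0.40 for Cntf and -1.05 ± 0.37 for Socs3 on the log2 scale.

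Tazemetostat alone gave 0 calls of 10 against Control with limma, beside 0% of all genes (unadjusted p under 0.05: 1, beside 576 of 15890). Its replicate 1 stood apart with Lif at 10.2 CPM and Socs3 at 36.7 CPM, where the other libraries had Lif at 2.69 and 2.18 CPM and Socs3 at 21.3 and 21.9 CPM. Same-numbered libraries deviated together in Tazemetostat against Control, and this fit had no replicate block. In Tat-Tazemetostat against Tat 0 of the 10 passed with limma, beside 0% of all genes (unadjusted p under 0.05: 1, beside 851 of 15890). In Tat-Tazemetostat against Tazemetostat 4 rose and 0 fell, beside 16.1% of all genes, namely Osmr (log2 fold change 2.81 ± 0.29, limma FDR = 2.01e-08), Socs3 (1.498 ± 0.26, 0.000144), Stat3 (0.86 ± 0.15, 0.000139) and Clcf1 (1.03 ± 0.25, 0.00367). In a fit to the 6 libraries compared Clcf1 did not pass (limma FDR = 0.0566). The summed astrocyte markers were 5990 to 8054 CPM in Tat-Tazemetostat and 9946 to 11410 CPM in Tazemetostat libraries, and 2 of 6 fell (Gfap and Gja1). The summed microglia markers were 800.2 to 1932 CPM against 612.2 to 827.9 CPM, and 1 of 6 rose (Itgam). The part of these shifts was not tested. The interaction of Tat with Tazemetostat gave 0 calls among the 10 with limma, beside 0% of all genes. Unadjusted p was under 0.05 for 1 of the 10 and for 271 of 15890 genes.

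The group with Tat, cocaine and Tazemetostat held the highest group mean of 6 of the 10 genes, namely Il6, Lif, Il6r, Il6st, Stat3 and Socs3. Il6 was at 3.72, 4.94 and 4.698 CPM and Socs3 at 89.6, 87.3 and 77.98 CPM, above all Tat-Cocaine libraries. Stat3 was at 651, 663 and 646 CPM, close to the highest Tat-Cocaine library. Against Tat-Cocaine 0 of the 10 genes passed with limma, while 28.7% of all genes did (unadjusted p under 0.05: 4, beside 6816 of 15890). The log2 differences were 1.23 ± 0.52 for Il6, 0.70 ± 0.28 for Il6r, 0.63 ± 0.26 for Socs3 and 0.35 ± 0.15 for Stat3 (limma FDR = 0.0673, 0.0589, 0.0646 and 0.0777). Without Tat-Cocaine replicate 3 the count of calls was 6, and the share of all genes without it is not given here. The summed microglia markers were 1140 to 1880 CPM here, above all Tat-Cocaine libraries (450.1 to 839.7 CPM), and 2 of 6 rose. All 6 neuron markers fell, as did 2 of 5 oligodendrocyte, 2 of 3 fibroblast, 1 of 6 astrocyte and 1 of 2 endothelial markers. The part of these shifts was not tested.

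Senicapoc alone gave 0 calls of 10 against Control with limma, beside 0% of all genes (unadjusted p under 0.05: 2, beside 1378 of 15890). Its replicate 2 stood apart with Lif at 16.7 CPM and Socs3 at 26.1 CPM, where the other libraries had Lif at 2.24 and 2.50 CPM and Socs3 at 11.8 and 12.9 CPM. Same-numbered libraries deviated together in Senicapoc against Control, and this fit had no replicate block. In Tat-Senicapoc against Tat 0 of the 10 passed with limma, beside 0.409% of all genes (unadjusted p under 0.05: 3, beside 2909 of 15890). Osmr was at 177, 204 and 183 CPM, below all Tat libraries (log2 difference -0.78, 95% confidence interval -1.37 to -0.19, limma FDR = 0.17). In Tat-Senicapoc against Senicapoc 4 rose and 0 fell, beside 16% of all genes, namely Osmr (log2 fold change 2.85 ± 0.29, limma FDR = 1.93e-08), Socs3 (1.65 ± 0.26, 4.04e-05), Stat3 (0.91 ± 0.15, 7.13e-05) and Lifr (0.34 ± 0.11, 0.0347). The Lifr call did not hold without Senicapoc replicate 2 or 3 or Tat-Senicapoc replicate 1 or 3 (0.29 to 0.39), nor under quantile normalization or in a fit to the 6 libraries compared. The summed microglia markers were 612.6 to 1230 CPM in Tat-Senicapoc and 359.9 to 535.1 CPM in Senicapoc libraries, which did not overlap, and 3 of 6 rose (Aif1, Tmem119 and Itgam). Their part in these rises was not tested. The interaction of Tat with Senicapoc gave 0 calls among the 10 with limma, beside 0% of all genes. Unadjusted p was under 0.05 for 1 of the 10 and for 762 of 15890 genes. In Tat-Cocaine-Senicapoc against Tat-Cocaine 0 of the 10 passed with limma, beside 0.0441% of all genes (unadjusted p under 0.05: 0, beside 2466 of 15890). In Tat-Cocaine-Amlexanox against Tat-Cocaine 0 of the 10 passed with limma, beside 0.925% of all genes (unadjusted p under 0.05: 2, beside 2829 of 15890).

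**Figure D4:**
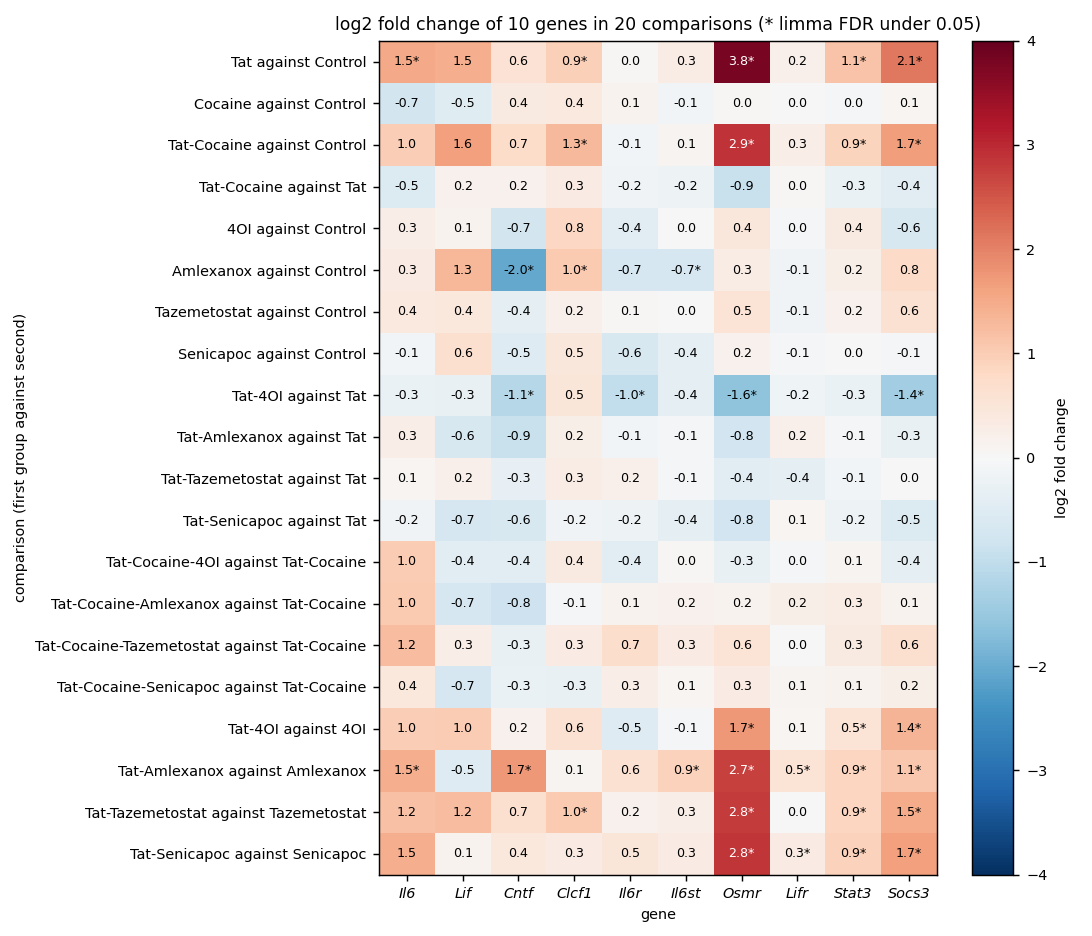
log2 fold change of the 10 genes (columns) in 20 comparisons of 2 groups (rows), with red for higher and blue for lower in the first group and a star for a limma FDR under 0.05. Osmr, Stat3 and Socs3 are starred in all 5 comparisons of Tat with its matching group without Tat and cocaine, and Osmr and Socs3 are starred as lower in Tat-4OI against Tat.

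Across the 16 group means of log2(CPM + 0.5), Osmr and Stat3 followed each other with a Pearson correlation of 0.98, and Osmr and Socs3 with 0.93. Il6r and Clcf1 had a correlation of -0.08, and Il6r and Lif of 0.08. Among all genes tested, the 3 most like Osmr were Pla2r1 (0.991), Zc3h12a (0.989) and Il1rn (0.987). The 3 most like Socs3 were Slc26a2 (0.988), Asgr1 (0.980) and Bcl3 (0.979). For Il6 they were Stat3 (0.956), Ugdh (0.947) and Cfi (0.945), and for Lif Acvr1b (0.937), Golga3 (0.922) and Junb (0.916). These are descriptions over 16 points, 10 of which are groups with Tat, so that the separation of groups with Tat from those without weighs on each of them.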

How the data were processed

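RNA of 48 cultures was sequenced from strand-specific libraries. Per the study's methods and processing notes, the authors trimmed reads with Trim Galore 0.4.5, aligned them with STAR 2.7.2 and assigned unique alignments to genes with featureCounts (Subread 1.5.3). The methods name the build Rnor_6.0 and the processing notes mRatBN7.2. The signal the authors deposited is CPM scaled by TMM in edgeR, 1 value per gene and library. The authors' 16 columns of group means and 180 columns of comparisons (edgeR log2 fold changes, p-values and FDR) were not used. Between 85.0 and 87.3% of values above 0 were whole reads within 0.02 read, so count tests were not run.

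Groups and replicate numbers were taken as labelled, and all 48 libraries were kept. Values were analysed as log2(CPM + 0.5), which understates changes of low genes. Genes with at least 0.5 CPM (8.58 to 15.0 reads) in at least 3 libraries were fitted with limma 3.58.1 in R 4.3.3 (lmFit, eBayes with a trend) on all 48 libraries with 1 mean per group and no covariates, after a test on simulated data. FDR was adjusted over all 15890 genes within each comparison. An exact permutation test of 3 against 3 libraries cannot go below p = 0.1. Libraries of a group correlated at 0.987 to 0.999. Genes named are the 10 members and, among other pathway genes, the 2 largest rises and 2 largest falls that passed in Tat against Control and in Tat-4OI against Tat, with others given beside counts. One gene of the planned lists is not reported here and enters no list count. The members and lists were chosen with earlier results of these data known. Il31, Serpina3n and Pecam1 were not found by symbol, and Il27, Il31ra and Cldn5 did not pass the filter. CPM is not divided by gene length, so levels of different genes were not compared. Same-numbered libraries deviated together (every correlation over 0.1) in Tat-Cocaine, 4OI, Tazemetostat and Senicapoc against Control, in Tat-Amlexanox against Tat and in Tat-Amlexanox against Amlexanox. Alternatives were another pseudocount, filter, scaling, spread model or set of libraries, a replicate block, and each library left out.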

Additional observations from a re-analysis of the deposited data

Results flagged for a closer look

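The effect of Tat on Osmr differed between cultures with and without 4OI in the fit to all 48 libraries. The interaction was -2.05 ± 0.41 on the log2 scale (limma FDR = 0.0102), with a Tat effect of 1.74 with 4OI and of 3.78 without it, 3 libraries per group. It did not pass in the fit to 21 libraries or to the compared groups (limma FDR = 0.203 and 0.0927). Nor did it pass without Tat replicate 2 or Tat-4OI replicate 1. All 3 Tat-4OI libraries were above all 3 4OI libraries, and all 3 Tat libraries above all 3 Control libraries. These separations concern each Tat effect and not the difference between them. The estimated Tat effect on Osmr was also below 3.78 with the other compounds. It was 2.72 with Amlexanox, 2.81 with Tazemetostat and 2.85 with Senicapoc, where the interaction did not pass. Each interaction uses the same Tat and Control libraries, and Tat had the highest group mean of Osmr (332 CPM). The estimates are therefore not independent, and whether the other compounds lowered the effect was not settled.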

How the results depend on the processing

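Of 35 calls of a member in a comparison, 24 held under every alternative and without any single library, 11 were lost under some, and 0 changed direction. Counts of members called out of 10 that moved by over 1.5 times are given next. The share of all genes called is not given for a count under an alternative, here or above. Such a count does not tell a change of the members from one of all genes. With a weight per library they were 3 in 4OI against Control (0 as reported), 5 in Amlexanox against Control (3), 1 in Senicapoc against Control (0), 7 in Tat-4OI against Tat (4), 2, 4 and 6 for 4OI, Amlexanox and Tazemetostat added to Tat-Cocaine (0 each), 8 in Tat-Senicapoc against Senicapoc (4), 2 and 1 for the interactions with 4OI (1) and Amlexanox (0), and 2 for cocaine over 5 backgrounds (0). With a replicate block they were 1 in 4OI against Control, 5 in Amlexanox against Control, 1 in Tat-Senicapoc against Tat (Osmr), 4 in Tat-Cocaine-Tazemetostat against Tat-Cocaine and 1 for cocaine over 5 backgrounds (Cntf), and Lif also passed in Tat against Control (log2 fold change 1.45). In the fit to the compared groups they were 0 in Amlexanox against Control, 1 in Tat-Cocaine-Tazemetostat against Tat-Cocaine, 0 for the 4OI interaction (also 0 in the fit to 21 libraries) and 1 for cocaine over 5 backgrounds. A pseudocount of 0.1 CPM and quantile normalization each gave 1 in 4OI against Control, quantile normalization gave 2 for cocaine over 5 backgrounds, and a pseudocount of 1 CPM gave 1 in Tat-Cocaine-Tazemetostat against Tat-Cocaine. Leaving out 1 library gave 1 to 4 in Amlexanox against Control, 0 to 6 in Tat-Cocaine-Tazemetostat against Tat-Cocaine, 0 to 1 for the 4OI interaction, 0 to 3 for the Amlexanox interaction and 0 to 1 for cocaine over 5 backgrounds. Uncalled log2 differences changed sign. Il6r in Tat against Control was -0.030 under quantile normalization and -0.0364 with weights, and -0.17 to 0.18 without 1 library. Under quantile normalization Il6st and Stat3 in Tat-Cocaine-4OI against Tat-Cocaine were -0.015 and -0.026. Without 1 library Il6r was -0.32 to 0.045 and Il6st -0.0640 to 0.27 in Tat-Cocaine against Control, and Il6 was -0.60 to 0.15 and Lif -0.88 to 0.12 in Tat-4OI against Tat. In Tat-Cocaine-4OI against Tat-Cocaine Lif was -0.80 to 0.037, Il6st -0.15 to 0.21, Osmr -0.72 to 0.010, Lifr -0.14 to 0.083 and Stat3 -0.0686 to 0.27. The cause of these moves was not tested. The level of Il6, in some libraries a few reads, limits what its comparisons can show.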
